A study of Homo sapiens with 30 samples.

Results

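The expression of 10 genes for chaperones and stress regulators of the endoplasmic reticulum (ER) was followed in cancer cells treated with Omomyc, a miniprotein derived from the dimerization and DNA-binding domain of Myc that interferes with Myc function. The 10 genes were picked by name, and all 10 were found among the 57992 genes of the deposited table. They are the chaperones HSPA5, HSP90B1, CALR and CANX, the protein disulfide isomerases PDIA3, PDIA4 and PDIA6, and the unfolded protein response genes DNAJB9, XBP1 and HERPUD1. The study sequenced total RNA depleted of rRNA from HCT116 cells, a colon carcinoma line in which Myc is stabilized, and from Ramos cells, a Burkitt's lymphoma line with a MYC translocation. HCT116 cells were untreated or given 2 or 10 μM Omomyc, Ramos cells were untreated or given 0.5 or 2.5 μM, and treated cells were taken at 6 or 24 h, with 3 replicates in each of 10 groups. The labels give the lower HCT116 dose as 2 μM and the methods as 2.5 μM, and libraries titled 24 h carry a time tag of 4 h, so the titles were followed here. The methods describe ProteoJuice, a protein transfection reagent, for the HCT116 libraries, leave unclear whether the untreated cells received it, and do not describe the Ramos libraries. The untreated cells have no time point and are shared by the 6 and 24 h comparisons of a line, so Omomyc and time in culture cannot be told apart. Nothing in the labels says that replicates came from separate cultures, so p-values measure the spread between libraries, which may be technical.

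Secreted and membrane proteins fold in the ER. HSPA5 (BiP) and HSP90B1 (GRP94) are the Hsp70 and Hsp90 chaperones of that compartment, calreticulin (CALR) and calnexin (CANX) hold glycoproteins through their sugar chains, and the protein disulfide isomerases form and rearrange disulfide bonds. When unfolded proteins build up, the sensors IRE1, PERK and ATF6 start the unfolded protein response. IRE1 splices the XBP1 mRNA into the form that encodes an active transcription factor, ATF6 is cleaved to release another factor, and PERK slows translation and raises ATF4. XBP1 and ATF6 act on chaperone promoters through the ER stress response element (ERSE), together with the factor NF-Y. DNAJB9 (ERdj4) is a cochaperone of HSPA5, and HERPUD1 works in the degradation of ER proteins. The gene values sum over spliced and unspliced XBP1 mRNA, so splicing was not measured here.

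The promoter sequences are shown because they hold the elements through which the unfolded protein response acts. RefSeq windows on GRCh38.p14, from 250 bases before to 50 after each annotated start, were searched on both strands for 9 of the 10 genes, PDIA3 having no entry. The ERSE, CCAAT and CCACG separated by any 9 bases, was found in 6 of those 9 genes and in 0.0769% of all 35116 windows. Genes were counted where any of their windows held a match, while the shares are of single windows. ERSE-II, ATTGG and CCACG separated by any 1 base, was found in HERPUD1 and in 0.0541% of all windows. Capitals mark the fixed letters of the element, printed 5′ to 3′ on the strand of the gene. In CALR, and at the match of HSP90B1 nearer to the start, the element reads on the opposite strand, as CGTGG and ATTGG. The printed element of CANX also began 189 and 9 bases before other annotated starts of that gene, and in the latter case it ran across the start.
HSPA5 (chr9:125241381-125241449, minus strand, ERSE 66 bases before the start): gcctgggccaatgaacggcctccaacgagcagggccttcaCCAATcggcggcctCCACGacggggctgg
HSP90B1 (chr12:103930176-103930349, plus strand, 194 and 89 bases before the start): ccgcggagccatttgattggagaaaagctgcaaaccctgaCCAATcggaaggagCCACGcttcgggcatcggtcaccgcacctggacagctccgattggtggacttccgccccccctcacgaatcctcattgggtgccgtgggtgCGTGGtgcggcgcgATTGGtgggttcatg
CALR (chr19:12938359-12938412, plus strand, 225 bases before the start): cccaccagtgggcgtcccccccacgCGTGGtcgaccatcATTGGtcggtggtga
CANX (chr5:179698738-179698806, plus strand, 151 bases before 1 of its 4 annotated starts): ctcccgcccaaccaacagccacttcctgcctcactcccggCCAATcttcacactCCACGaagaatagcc
PDIA6 (chr2:10812843-10812911, minus strand, 86 bases before 1 of its 2 annotated starts): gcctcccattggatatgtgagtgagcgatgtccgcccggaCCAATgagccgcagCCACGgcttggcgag
XBP1 (chr22:28800593-28800661, minus strand, 52 bases before 1 of its 2 annotated starts): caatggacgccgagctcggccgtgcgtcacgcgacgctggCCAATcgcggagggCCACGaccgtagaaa
HERPUD1 (chr16:56931985-56932045, plus strand, ERSE-II 117 bases before the start): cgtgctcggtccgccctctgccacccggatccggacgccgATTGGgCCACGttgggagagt

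The E box CACGTG, the class of site that Myc and Omomyc bind, was found in HSP90B1, CANX, DNAJB9 and HERPUD1, 4 of the 9 genes, and in 7.26% of all windows. In CANX it lay 30 bases after 1 of the 4 annotated starts. DNAJB9 held an E box 73 and another 49 bases before its start, and neither form of ERSE. The element UPRE, searched as TGACG directly followed by TGG, was found in 0 of the 9 genes and in 0.729% of all windows. None of these 4 motifs was found in the windows of PDIA4. A match of letters is a description of the sequence, and binding was not measured.

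In the GENCODE release 29 annotation (GRCh38), HSPA5, PDIA4 and XBP1 overlap no other gene. Genes on the opposite strand overlap HSP90B1, CALR, CANX, PDIA3, PDIA6 and DNAJB9, and genes on the same strand overlap HSP90B1, CALR, CANX, PDIA6 and HERPUD1. The library kit keeps strand, but whether the counting used it is not given in the sources used here, so values of overlapping genes are uncertain to that extent.

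The deposited values are RPKM, reads scaled to gene length and library size, without the reads behind them, so depth is unknown and no interval for counting error is given. Library sums of RPKM ranged from 593633 to 1051040 in HCT116 and from 783788 to 973736 in Ramos cells. The epithelial markers EPCAM, KRT8, KRT18, KRT19, CDH1 and VIL1 together reached 1414 to 2231 RPKM in HCT116 libraries and at most 1.74 RPKM in Ramos libraries, with VIL1 under 1 RPKM in every HCT116 library. Of the B cell markers, CD79A averaged 384, CD79B 376, MS4A1 283, CD22 342 and PAX5 41.1 RPKM in untreated Ramos cells, against 0.0676, 0.276, 0.00, 0.977 and 0.00383 RPKM in untreated HCT116 cells. Small RNAs took 22.3 to 29.8% of the RPKM in untreated HCT116 cells, 35.3 to 54.0% at 6 h and 27.1 to 35.7% at 24 h. In untreated Ramos cells they took 43.2 to 49.0%, and with 0.5 μM 39.9 to 43.5% at 6 h and 40.9 to 45.7% at 24 h. With 2.5 μM Ramos libraries held 38.2 to 39.2% at 6 h and 34.3 to 38.2% at 24 h. The 3rd replicate of HCT116 cells with 10 μM Omomyc at 6 h stood apart at 54.0%, against 42.5 and 43.4% in the other replicates of its group. Mitochondrial mRNAs took 0.399 to 0.518% of the RPKM in untreated HCT116 cells, 1.74 to 3.10% at 6 h and 0.815 to 1.88% at 24 h, and 0.190 to 0.271% in Ramos libraries. The part of these shares in the results was not tested. In bulk RNA, fewer cells that express a gene and less of its RNA per cell cannot be told apart.

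In untreated HCT116 cells, HSP90B1 at 372 ± 26.7 RPKM (SD, n = 3) and CANX at 366 ± 15.7 RPKM were highest and overlapped. CALR at 207 ± 19.4 RPKM overlapped PDIA3 at 177 ± 14.6 RPKM, and HSPA5, PDIA4 and PDIA6 followed at means of 130.2, 122.7 and 114 RPKM, each overlapping its neighbor. The regulators were lower and did not overlap, with XBP1 at 35.5 ± 0.538 RPKM, HERPUD1 at 28.3 ± 0.262 RPKM and DNAJB9 at 3.58 ± 0.119 RPKM. In untreated Ramos cells CALR led at 252 ± 7.97 RPKM and CANX followed at 201 ± 7.43 RPKM, without overlap. PDIA6 at 136 RPKM overlapped PDIA3 at 125 RPKM, HSP90B1 at 95.6 RPKM overlapped XBP1 at 83.4 RPKM, and PDIA4 at 65.9 RPKM overlapped HERPUD1 at 64.5 RPKM. HSPA5 at 46.8 ± 2.44 RPKM and DNAJB9 at 5.76 ± 1.41 RPKM were lowest.

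Between the untreated lines, 5 genes were higher and 5 lower in HCT116, where 45.7% of the 15647 genes tested were higher and 39% lower (limma on log2(RPKM + 0.5), Benjamini-Hochberg adjusted p under 0.05). HSP90B1 was 3.89-fold and HSPA5 2.76-fold higher in HCT116, at log2 differences of 1.96 ± 0.082 (SE) and 1.47 ± 0.063 (limma adjusted p = 4.39e-07 and 4.87e-07). PDIA4, CANX and PDIA3 were also higher there, by 0.89, 0.86 and 0.50. XBP1 and HERPUD1 were lower in HCT116, at log2 differences (HCT116 minus Ramos) of -1.22 ± 0.040 and -1.18 ± 0.037 (limma adjusted p = 1.10e-07 and 9.04e-08). DNAJB9, CALR and PDIA6 were lower by smaller amounts, at -0.60, -0.29 and -0.26, although CALR and PDIA6 turned to 0.29 and 0.32 where every library was scaled to the same RPKM total. Over 8 other settings DNAJB9 weakened to as little as -0.075 and was called in 6 (limma adjusted p up to 0.619). XBP1 and HERPUD1 weakened to as little as -0.65 and -0.60 but were called in all 8. With 1 line of each tumor type, line and tumor type cannot be told apart.

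**Figure D1:**
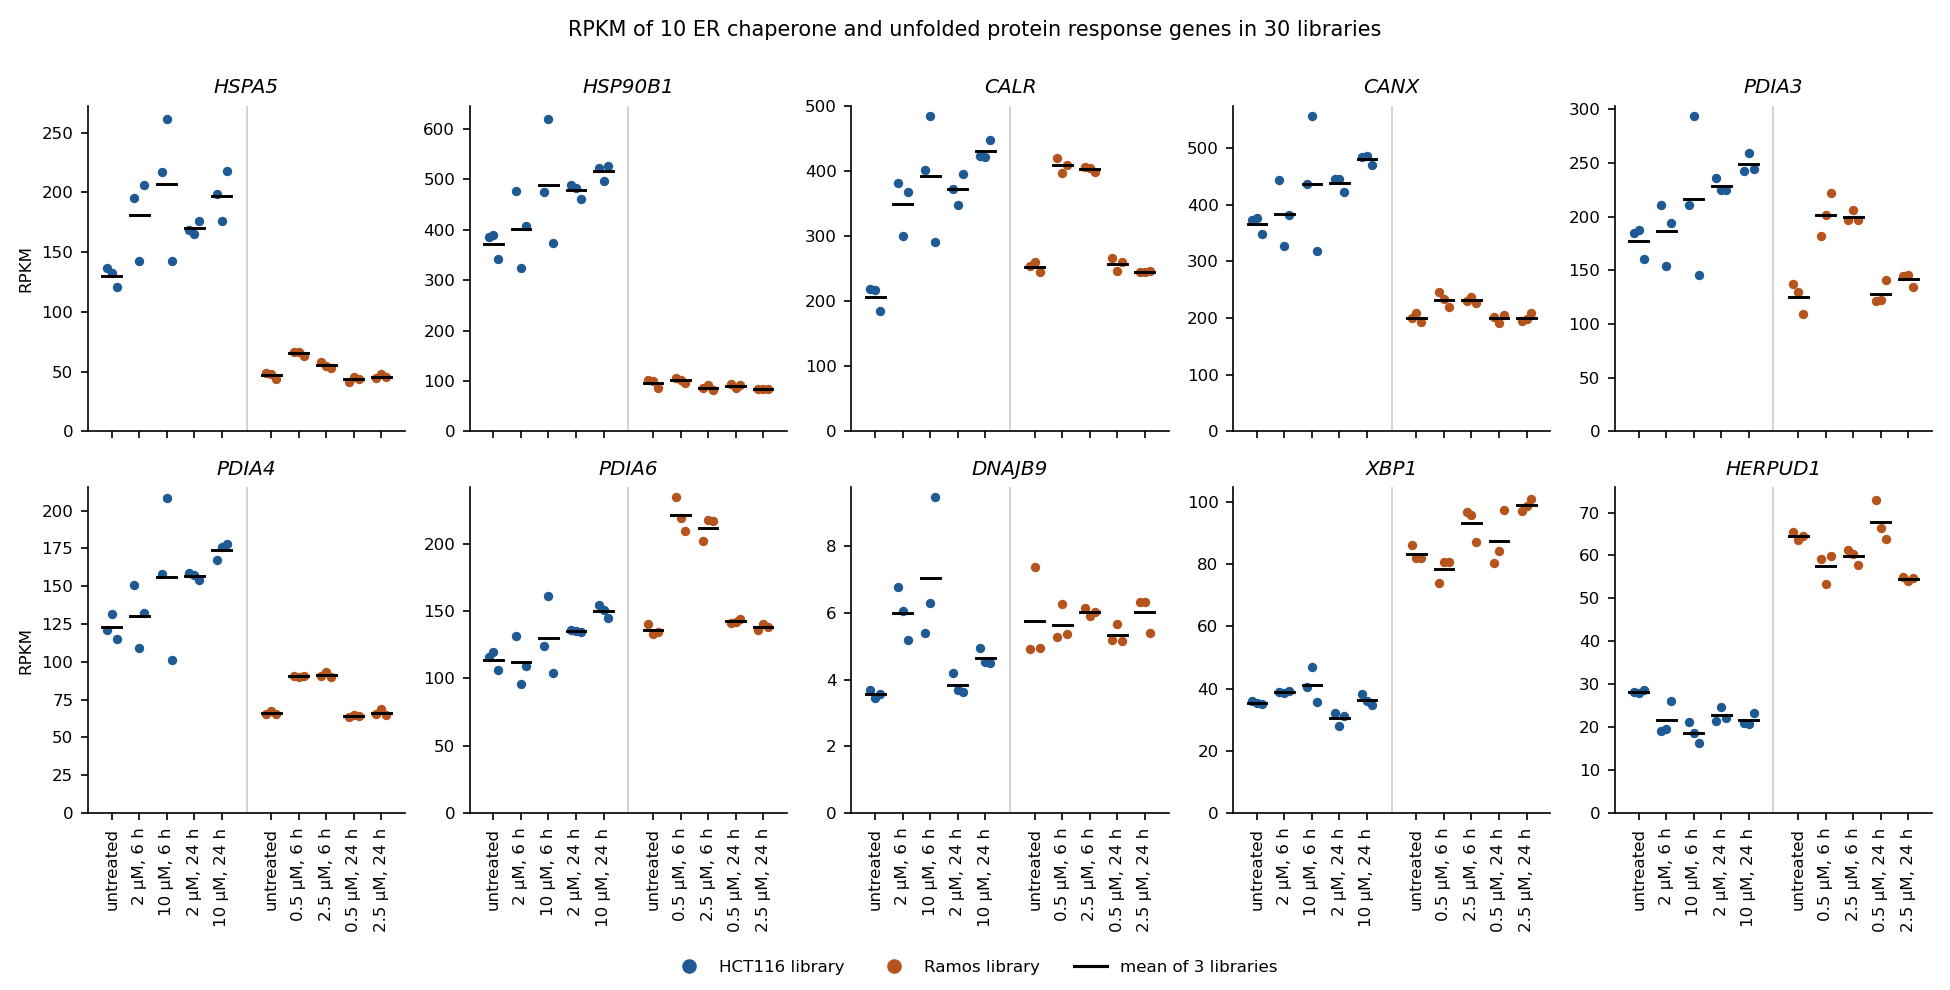
RPKM (vertical axes, from 0, with a scale for each gene) of the 10 genes in each of 30 libraries, by group along the horizontal axis, with points for libraries and bars for the mean of 3. In Ramos cells CALR, PDIA3, PDIA4 and PDIA6 stand above untreated cells at 6 h and near them at 24 h, and in HCT116 cells 10 μM at 24 h is above untreated cells for 8 of the 10 genes without overlap.

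After 24 h with Omomyc the chaperones and disulfide isomerases were higher in HCT116 cells at both doses. With 10 μM, 8 of the 10 genes were higher and 1 lower than in untreated cells, where 19.5% of the 14827 genes tested were higher and 15.7% lower, and the median log2 fold change was 0.43 beside 0.02 for all genes. With 2 μM, 7 were higher and 2 lower, where 16.6% of the 14886 genes tested were higher and 10.8% lower, and the median was 0.30 beside 0.04. The 4 chaperones and 3 disulfide isomerases made up the 7, and DNAJB9 was the 8th with 10 μM. All of these stood above the untreated libraries without overlap, as did 26.6% of all genes with 10 μM and 26.2% with 2 μM. When all 15 HCT116 libraries entered the fit, 2 genes with 10 μM and 1 with 2 μM were called higher. With the same RPKM total in every library the counts were 4 and 2. These counts are given without the shares of all genes in those fits.

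CALR, the calcium-binding lectin chaperone, had the largest rise of the 10 genes at 24 h in HCT116 cells. It was at 218, 218 and 184 RPKM in untreated HCT116 libraries, at 373, 348 and 396 RPKM after 24 h with 2 μM and at 424, 422 and 448 RPKM after 24 h with 10 μM. The treated libraries did not overlap the untreated ones, and the log2 fold changes were 0.85 ± 0.075 and 1.06 ± 0.072 (limma adjusted p = 2.77e-04 and 1.65e-05). At 6 h CALR was at 382, 300.3 and 368 RPKM with 2 μM and at 402, 485 and 292 RPKM with 10 μM, all above the untreated libraries. These changes of 0.75 ± 0.10 and 0.90 ± 0.19 were also called (limma adjusted p = 4.76e-04 and 0.0123), the latter not without the 3rd untreated replicate (limma adjusted p = 0.0619). CALR was the one chaperone or isomerase called higher in all 4 HCT116 groups.

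HSPA5, the Hsp70 chaperone that also keeps the sensors inactive, was at 137, 133 and 121 RPKM in untreated HCT116 libraries, at 168, 165 and 176 RPKM after 24 h with 2 μM and at 198, 176 and 218 RPKM after 24 h with 10 μM. The treated libraries did not overlap the untreated ones, with log2 fold changes of 0.38 ± 0.055 and 0.59 ± 0.080 (limma adjusted p = 0.00198 and 5.90e-04). At 6 h it was at 195, 143 and 206 RPKM with 2 μM and at 217, 261 and 142 RPKM with 10 μM, above all untreated libraries in each case. The change at 2 μM of 0.46 ± 0.13 was called (limma adjusted p = 0.0145), but not without the 3rd untreated replicate or the 1st or 3rd treated replicate, at limma adjusted p = 0.0549, 0.0518 and 0.0507. The change at 10 μM of 0.62 ± 0.21 was not called (limma adjusted p = 0.0587), and without the 3rd treated replicate it was 0.87 (limma adjusted p = 1.83e-04).

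HSP90B1 was at 386, 390.0 and 342 RPKM in untreated HCT116 libraries, at 489, 483 and 462 RPKM after 24 h with 2 μM and at 523, 497 and 527 RPKM after 24 h with 10 μM. The treated libraries did not overlap the untreated ones, and the log2 fold changes were 0.36 ± 0.059 and 0.47 ± 0.065 (limma adjusted p = 0.00347 and 6.79e-04). At 6 h it was at 476, 324 and 407 RPKM with 2 μM and 474, 619 and 373 RPKM with 10 μM, which overlapped the untreated libraries, and the changes of 0.10 and 0.36 were not called. CANX, the membrane-bound relative of calreticulin, was at 372, 377 and 348 RPKM untreated, at 445, 445 and 422 RPKM after 24 h with 2 μM and at 484, 485 and 469.9 RPKM after 24 h with 10 μM. Its log2 fold changes at 24 h were 0.26 ± 0.049 and 0.39 ± 0.055 (limma adjusted p = 0.00621 and 7.15e-04), and its changes of 0.06 and 0.22 at 6 h were not called.

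The 3 disulfide isomerases were each higher at 24 h in HCT116 cells. PDIA3 (ERp57), which works with calnexin and calreticulin, was at 184, 187 and 160.5 RPKM untreated and at 242, 259 and 245 RPKM after 24 h with 10 μM. PDIA4 (ERp72) was at 121, 132 and 115 RPKM untreated and at 167, 176 and 178 RPKM after the same treatment. PDIA6 (P5) went from 116, 119.5 and 106 RPKM to 154, 151 and 145 RPKM. The treated libraries did not overlap the untreated ones, and the log2 fold changes were 0.49 ± 0.066, 0.50 ± 0.059 and 0.40 ± 0.057 (limma adjusted p = 5.97e-04, 2.76e-04 and 7.49e-04). With 2 μM at 24 h they were 0.37, 0.35 and 0.25, all called. At 6 h all 3 overlapped untreated cells at both doses, at log2 fold changes from -0.03 to 0.28, and none was called.

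At 6 h, 3 genes were higher and 1 lower in HCT116 cells with 2 μM, where 15.5% of the 14550 genes tested were higher and 31.8% lower. With 10 μM, 2 were higher and 1 lower, where 8.84% of the 14785 genes tested were higher and 21.2% lower. Median log2 fold changes were 0.09 and 0.26, beside -0.12 and -0.11 for all genes. With the same RPKM total in every library these medians turned to -0.25 and -0.23, beside -0.42 and -0.56. At 10 μM, 0 of the 10 genes were then higher, where 310 of 14877 genes tested were. With median-ratio scaling 5 were higher at that dose, where 2138 of 14783 genes tested were. The count at 10 μM also turned on the 3rd replicate, the library with the largest share of small RNAs. Without it 9 of the 10 genes were higher, where 2965 of 14784 genes tested were, against 1307 of 14785 with it. Among the 9 were HSP90B1 at 0.54, CANX at 0.43, PDIA3 at 0.49, PDIA4 at 0.56, PDIA6 at 0.31 and XBP1 at 0.29 on the log2 scale (limma adjusted p from 0.00390 to 0.0377). Without the 3rd untreated replicate, 0 of the 10 genes were higher at that dose, where 509 of 14839 genes tested were.

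DNAJB9, HERPUD1 and XBP1 took other courses in HCT116 cells. DNAJB9 was at 3.70, 3.46 and 3.57 RPKM untreated, at 6.78, 6.06 and 5.19 RPKM after 6 h with 2 μM and at 5.41, 6.30 and 9.47 RPKM after 6 h with 10 μM. The treated libraries did not overlap the untreated ones, with log2 fold changes of 0.67 ± 0.11 and 0.85 ± 0.19 (limma adjusted p = 0.00125 and 0.0154). The call at 10 μM was lost without any 1 of the untreated replicates (limma adjusted p from 0.0574 to 0.0623). By 24 h DNAJB9 was at 4.21, 3.70 and 3.65 RPKM with 2 μM, which overlapped untreated cells, and at 4.94, 4.54 and 4.49 RPKM with 10 μM, a log2 fold change of 0.34 ± 0.088 (limma adjusted p = 0.0151). That call was lost without the 2nd untreated or the 1st treated replicate (limma adjusted p = 0.0503 and 0.0552).

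HERPUD1 fell in all 4 HCT116 groups. It was at 28.2, 28.0 and 28.5 RPKM untreated, at 19.0, 19.6 and 26.2 RPKM after 6 h with 2 μM and at 21.2, 18.7 and 16.3 RPKM after 6 h with 10 μM. It was at 21.3, 24.8 and 22.2 RPKM after 24 h with 2 μM and at 21.0, 20.8 and 23.3 RPKM after 24 h with 10 μM. All treated libraries were below all untreated libraries. The log2 fold changes, in that order, were -0.40 ± 0.11, -0.59 ± 0.12, -0.31 ± 0.062 and -0.37 ± 0.058 (limma adjusted p = 0.0162, 0.00916, 0.00766 and 0.00122). The call at 2 μM and 6 h was lost without the 1st treated replicate (limma adjusted p = 0.0537) and that at 10 μM and 6 h without the 3rd untreated replicate (limma adjusted p = 0.0513).

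XBP1 was at 36.1, 35.4 and 35.01 RPKM in untreated HCT116 libraries. It fell with 2 μM at 24 h to 32.1, 28.0 and 31.3 RPKM, a log2 fold change of -0.22 ± 0.059 (limma adjusted p = 0.0247), and this call was lost without any 1 of the untreated replicates or the 2nd treated replicate (limma adjusted p from 0.0571 to 0.0781). With 10 μM at 24 h it was at 38.2, 36.1 and 34.7 RPKM, which overlapped untreated cells. At 6 h its changes of 0.13 and 0.20 were not called.

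In Ramos cells the chaperones other than HSP90B1 and the isomerases were higher at 6 h at both doses. With 0.5 μM at 6 h, 6 of the 10 genes were higher and 0 lower, where 13.8% of the 13614 genes tested were higher and 9.73% lower. With 2.5 μM at 6 h, 7 were higher and 0 lower, where 17.3% of the 13595 genes tested were higher and 10.7% lower. The median log2 fold changes were 0.33 and 0.22, beside 0.02 and 0.03 for all genes. HSPA5, CALR, CANX, PDIA3, PDIA4 and PDIA6 were higher at both doses, and XBP1 with 2.5 μM. With limma, 7 and 8 genes had an unadjusted p under 0.05, but the share of all genes under that threshold was not counted.

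CALR was at 253, 260.0 and 244 RPKM in untreated Ramos libraries, at 419, 396 and 409.6 RPKM after 6 h with 0.5 μM and at 406, 404 and 399 RPKM after 6 h with 2.5 μM. The treated libraries did not overlap the untreated ones, with log2 fold changes of 0.69 ± 0.046 and 0.67 ± 0.039 (limma adjusted p = 7.10e-05 and 2.65e-05). At 24 h CALR was at 266, 246 and 261 RPKM with 0.5 μM and at 245, 244 and 247 RPKM with 2.5 μM, overlapping untreated cells.

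PDIA6 was at 140.2, 133 and 135 RPKM in untreated Ramos libraries, at 235, 219 and 209 RPKM after 6 h with 0.5 μM and at 202, 217 and 217 RPKM after 6 h with 2.5 μM. The log2 fold changes were 0.70 ± 0.052 and 0.64 ± 0.044 (limma adjusted p = 1.12e-04 and 5.70e-05), without overlap with untreated cells. PDIA3 was at 137, 129.8 and 109 RPKM untreated, at 182, 201 and 222 RPKM with 0.5 μM and at 197, 206 and 197 RPKM with 2.5 μM at 6 h. PDIA4 was at 65.4, 67.1 and 65.2 RPKM untreated, at 90.4, 90.2 and 90.3 RPKM with 0.5 μM and at 90.4, 93.5 and 90.2 RPKM with 2.5 μM at 6 h. Neither overlapped untreated cells, and all 4 changes were called, at 0.69 and 0.68 for PDIA3 and 0.45 and 0.47 for PDIA4.

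HSPA5 was at 48.6, 47.8 and 44.0 RPKM in untreated Ramos libraries, at 66.4, 66.4 and 63.3 RPKM after 6 h with 0.5 μM and at 58.3, 54.4 and 52.9 RPKM after 6 h with 2.5 μM. The log2 fold changes were 0.48 ± 0.053 and 0.24 ± 0.056 (limma adjusted p = 4.48e-04 and 0.0147), and the latter call was lost without the 1st treated replicate (limma adjusted p = 0.0619). CANX rose from 201, 208 and 193 RPKM to 245, 234 and 219 RPKM with 0.5 μM and to 231, 237 and 227 RPKM with 2.5 μM, by 0.21 and 0.21 (limma adjusted p = 0.0214 and 0.00717). The call at 0.5 μM was lost without any 1 of 4 libraries, the 1st or 3rd untreated or the 1st or 2nd treated replicate (limma adjusted p from 0.0535 to 0.0750). HSP90B1, at 101, 99.8 and 85.5 RPKM untreated, was the one chaperone not called in any Ramos group, with log2 fold changes from -0.19 to 0.09. Without the 3rd untreated replicate it was called lower with 2.5 μM, at -0.21 at 6 h and -0.26 at 24 h (limma adjusted p = 0.0183 and 0.0114).

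Of the regulators, DNAJB9 was at 4.92, 7.39 and 4.97 RPKM in untreated Ramos libraries and at 5.28, 6.27 and 5.37 RPKM after 6 h with 0.5 μM, and was not called in any Ramos group. HERPUD1 was at 65.5, 63.6 and 64.4 RPKM untreated, and at 59.1, 53.3 and 59.9 RPKM with 0.5 μM and 61.4, 60.4 and 57.8 RPKM with 2.5 μM at 6 h. All of these treated libraries were below the untreated ones, but the changes of -0.17 and -0.11 were not called (limma adjusted p = 0.0540 and 0.0904). XBP1 was at 86.2, 82.1 and 82.0 RPKM untreated and at 96.9, 96.0 and 87.2 RPKM after 6 h with 2.5 μM, a log2 fold change of 0.16 ± 0.051 (limma adjusted p = 0.0456), which was lost without any 1 of 5 of the 6 libraries, the exception being the 3rd treated replicate (limma adjusted p from 0.0540 to 0.159).

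At 24 h in Ramos cells with 0.5 μM, 0 of the 10 genes were called, where 0.0146% of the 13674 genes tested were higher and 0% lower, and 0 of the 10 had an unadjusted p under 0.05 with limma. With 2.5 μM, XBP1 was higher and HERPUD1 lower, where 3.3% of the 13607 genes tested were higher and 1.31% lower. XBP1 was at 97.0, 98.7 and 101 RPKM, a log2 fold change of 0.24 ± 0.040 (limma adjusted p = 0.0165). HERPUD1 was at 54.9, 54.1 and 54.8 RPKM, a change of -0.24 ± 0.038 (limma adjusted p = 0.0159). Both calls were lost without any 1 of the treated replicates (limma adjusted p from 0.0649 to 0.0923). The 95% intervals of the log2 fold change with 2.5 μM at 24 h ran from -0.13 to 0.04 for CALR, from -0.10 to 0.10 for CANX and from -0.06 to 0.11 for PDIA6. These intervals hold for the RPKM as deposited. With the same RPKM total in every library 6 genes were higher, and CALR, CANX and PDIA6 lay above the intervals at 0.16, 0.20 and 0.23 (limma adjusted p = 0.0496, 0.0313 and 0.0256). With that scaling the median of all genes was 0.24, and 97.4% of the calls among all genes were higher.

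**Figure D2:**
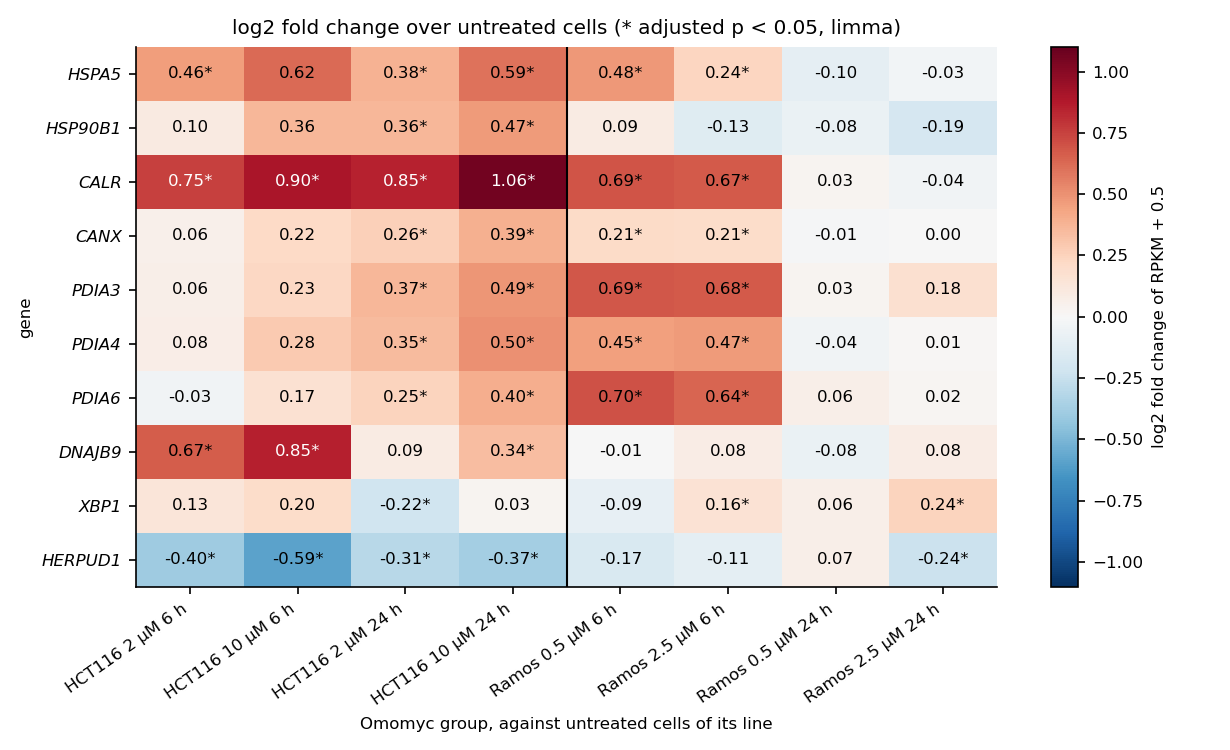
Log2 fold change of RPKM + 0.5 over untreated cells of the same line for the 10 genes (rows) in the 8 Omomyc groups (columns), with red for higher, blue for lower and an asterisk where the limma adjusted p was under 0.05. CALR reaches 1.06 in HCT116 with 10 μM at 24 h, HERPUD1 is blue and marked in all 4 HCT116 groups, and the column of Ramos cells with 0.5 μM at 24 h holds no asterisk.

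The change between 6 and 24 h was tested at each dose. In Ramos cells with 0.5 μM, 7 genes were lower and 1 higher at 24 h than at 6 h, where 13.5% of all genes were lower and 11.9% higher. With 2.5 μM, 7 were lower and 0 higher, where 10.4% of all genes were lower and 12.7% higher. CALR changed by -0.66 ± 0.047 and -0.72 ± 0.028 on the log2 scale (limma adjusted p = 3.26e-05 and 3.62e-06). PDIA6 changed by -0.63 and -0.62, PDIA3 by -0.65 and -0.50, PDIA4 by -0.49 and -0.46, HSPA5 by -0.58 and -0.26 and CANX by -0.22 and -0.21, all called, although CANX with 0.5 μM was not called without the 2nd replicate at 24 h (limma adjusted p = 0.0502). HSP90B1 with 0.5 μM and HERPUD1 with 2.5 μM were the other genes lower at 24 h, at -0.16 and -0.13 (limma adjusted p = 0.0480 and 0.0279), and each call was lost without any 1 of 5 of its 6 libraries, the exceptions being the 3rd replicate at 6 h in both. HERPUD1 with 0.5 μM was higher at 24 h, by 0.24 ± 0.064 (limma adjusted p = 0.0237), but not without the 2nd replicate at 6 h or the 1st at 24 h.

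In HCT116 cells with 2 μM, DNAJB9 and XBP1 were lower at 24 h than at 6 h, at log2 differences of -0.58 ± 0.12 and -0.35 ± 0.072 (limma adjusted p = 0.00555 and 0.00540), where 9.85% of all genes were lower. PDIA3 was higher, by 0.30 ± 0.11 (limma adjusted p = 0.0486), where 30.9% of all genes were higher, and this call was lost without any 1 of 5 of the 6 libraries, the exception being the 1st replicate at 6 h (limma adjusted p up to 0.135). Without the 1st replicate at 6 h, 7 genes were called in place of 3, a count given without the share of all genes in that fit. With 10 μM, 0 of the 10 genes were called, where 7.86% of all genes were called. With limma, 1 had an unadjusted p under 0.05, for which the share of all genes was not counted. That gene was DNAJB9, at -0.52 ± 0.19 (limma adjusted p = 0.128), whose 6 h libraries were all above its 24 h libraries.

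The doses were compared at each time. In HCT116 cells at 24 h, 8 of the 10 genes were higher with 10 μM than with 2 μM without overlap, where 7.51% of all genes were, at log2 differences from 0.11 for HSP90B1 to 0.25 for XBP1. None of the 10 was called, where 0.18% of all genes were called. With limma, 8 of the 10 had an unadjusted p under 0.05, a threshold for which the share of all genes was not counted. At 6 h in HCT116 cells, 0 of the 10 were called, where 0% of all genes were called, and 0 had an unadjusted p under 0.05 with limma. In Ramos cells at 6 h, 0 of the 10 were called, where 0.429% of all genes were called. With limma, 3 had an unadjusted p under 0.05, again without a share of all genes. They were HSPA5 at -0.24, HSP90B1 at -0.22 and XBP1 at 0.25. At 24 h in Ramos cells, 1 of the 10 was called, where 4.25% of all genes were called. HERPUD1 was lower with 2.5 than with 0.5 μM, by a log2 difference of -0.31 ± 0.052 (limma adjusted p = 0.0156), and the call was lost without any 1 of the replicates at 2.5 μM (limma adjusted p from 0.0515 to 0.0744).

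The lines were compared by the difference of their changes over untreated cells (HCT116 minus Ramos). The doses were not matched, and line, dose and transfection reagent cannot be told apart. At 6 h, with 2 μM for HCT116 and 2.5 μM for Ramos cells, 3 genes were lower and 1 higher in this difference, where 28.4% of the 15562 genes tested were lower and 12.2% higher. These counts were near the shares of all genes, and the median difference was -0.09, beside -0.14 for all genes. PDIA3, PDIA4 and PDIA6 were lower, at -0.61 ± 0.16, -0.39 ± 0.13 and -0.67 ± 0.13, and DNAJB9 higher, at 0.58 ± 0.19 (limma adjusted p = 0.00943, 0.0336, 0.00192 and 0.0285). The call of PDIA4 was lost without any 1 of 7 of the 12 libraries and that of DNAJB9 without any 1 of 6. The 95% intervals for HSPA5 and CALR ran from -0.13 to 0.57 and from -0.19 to 0.35, and neither was called, although CALR turned to -0.40 and was called with the same RPKM total in every library (limma adjusted p = 0.0392). Without the 2nd replicate of HCT116 cells at 2 μM, HSPA5 and HSP90B1 were called, at 0.39 and 0.38 (limma adjusted p = 0.00688 and 0.0350).

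At 24 h, 6 of the 10 genes were higher in this difference and 1 lower. With 2 μM for HCT116 cells 6.81% of the 15714 genes tested were higher and 9.51% lower, and with 10 μM 9.65% of the 15674 genes tested were higher and 12.9% lower. HSPA5, HSP90B1, CALR, CANX, PDIA4 and PDIA6 were higher with both doses. CALR was at 0.89 ± 0.092 with 2 μM and 1.103 ± 0.084 with 10 μM (limma adjusted p = 4.06e-04 and 2.66e-05), and HSP90B1 at 0.55 ± 0.093 and 0.66 ± 0.095 (limma adjusted p = 0.00387 and 9.19e-04). XBP1 was lower, at -0.46 ± 0.069 and -0.21 ± 0.059 (limma adjusted p = 0.00212 and 0.0247). The calls of PDIA6 with 2 μM and of XBP1 with 10 μM were each lost without any 1 of 4 of the 12 libraries. With the same RPKM total in every library, CANX, PDIA3, PDIA6 and DNAJB9 turned below 0 with both doses and PDIA4 with 2 μM, and none of these turned values was called.

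**Figure D3:**
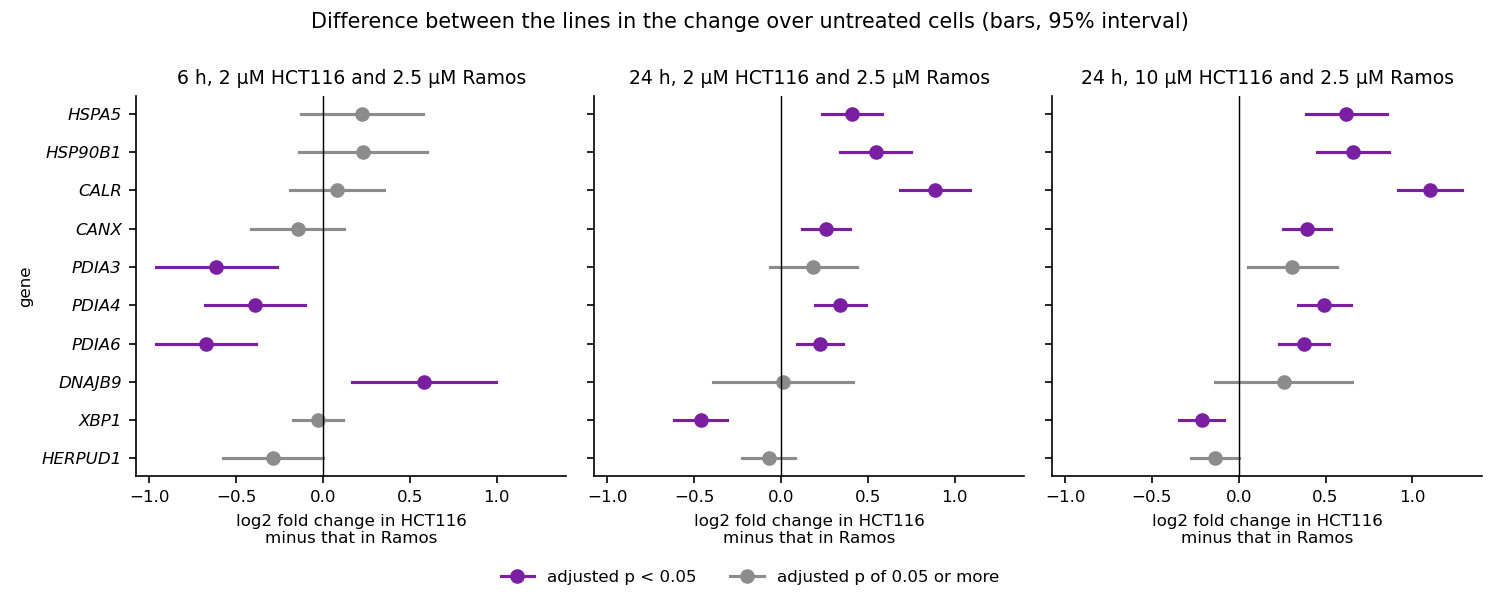
Difference between the lines in the log2 fold change over untreated cells (HCT116 minus Ramos, horizontal axis) for each gene, with 95% intervals as bars, purple where the limma adjusted p was under 0.05 and gray otherwise. PDIA6 lies at -0.67 at 6 h and CALR at 0.89 and 1.103 in the 24 h panels, and with the same RPKM total in every library CANX, PDIA3, PDIA6 and DNAJB9 turn to the left of 0 in both 24 h panels and PDIA4 in the 2 μM panel.

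The rest of the ER folding machinery was examined with 71 other genes listed by role. In HCT116 cells with 10 μM at 24 h, 16 of 18 other chaperones and their helpers were higher and 0 lower, and 12 of 13 genes of oxidative folding were higher and 0 lower, where 19.5% of all genes were higher and 15.7% lower. The median log2 fold changes of both lists were 0.35, beside 0.02 for all genes. SERPINH1, the collagen chaperone, and SDF2L1, an ER stress-induced chaperone partner, rose by 0.98 and 0.89 (limma adjusted p = 1.26e-05 and 1.13e-05). PRDX4, an ER peroxiredoxin, and P4HB, the archetypal disulfide isomerase, rose by 0.67 and 0.49 (limma adjusted p = 1.11e-04 and 3.05e-04). Of 20 tested genes of ER-associated degradation, 13 were higher and 0 lower, beside the same shares of all genes, with AUP1 at 0.85 and DERL2 at 0.59. Over all 69 tested genes, 43 were higher and 10 lower. The higher count was 15 with the same RPKM total in every library and 21 with all HCT116 libraries in the fit. Both are given without the shares of all genes in those fits.

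In Ramos cells at 6 h, 8 of 17 tested other chaperones were higher and 0 lower with either dose, where 13.8% of all genes were higher with 0.5 μM and 17.3% with 2.5 μM, and the list medians were 0.18 and 0.10, beside 0.02 and 0.03 for all genes. SDF2L1 was at 28.8, 27.2 and 29.6 RPKM untreated and at 49.7, 54.3 and 57.8 RPKM with 0.5 μM, a log2 fold change of 0.91 ± 0.065 (limma adjusted p = 9.44e-05). CRELD2, an ER stress-induced protein of the compartment, rose by 0.90 and 0.94 with 0.5 and 2.5 μM, and DERL3, a derlin of ER-associated degradation, by 0.87 and 0.75. At 24 h, of the 69 tested genes, 0 were called with 0.5 μM and 1 was higher with 2.5 μM, where 0.0146% and 3.3% of all genes were higher. That gene was TXNDC5 at 0.26 (limma adjusted p = 0.0124). With the same RPKM total in every library 31 of the listed genes were higher with 2.5 μM, a count not comparable with the 3.3%. That scaling also raised the median of all genes, and nearly all calls among all genes were then higher, as given above.

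Of 8 listed genes of the PERK and ATF4 arm, NUPR1 was too low to be tested, and in HCT116 cells with 10 μM at 24 h the other 7 were lower and 0 higher, with a median of -0.61, where 15.7% of all genes were lower. With 2 μM at 24 h, 4 were lower and 0 higher, where 10.8% of all genes were lower. CHAC1, an enzyme that degrades glutathione, was at 12.3, 12.5 and 16.5 RPKM untreated and at 2.23, 2.81 and 2.57 RPKM with 10 μM at 24 h, a log2 fold change of -2.23 ± 0.12 (limma adjusted p = 7.16e-06). TRIB3, a pseudokinase induced by ATF4, was at -0.81 (limma adjusted p = 3.46e-05). At 6 h, 4 were lower and 2 higher with 2 μM and 5 lower and 2 higher with 10 μM. Over all genes lower calls also outnumbered higher ones there, at 31.8% against 15.5% with 2 μM and 21.2% against 8.84% with 10 μM. ATF3, a stress-induced factor, was higher by 3.17 and 2.56. In Ramos cells at 6 h with 2.5 μM, 5 of the 7 were lower and 0 higher, against 1 lower and 0 higher with 0.5 μM, where 10.7% and 9.73% of all genes were lower, with DDIT3 (CHOP), a factor linked to death after ER stress, at -0.43 (limma adjusted p = 0.00375). Of the 11 sensors and transcription factors, 2 were higher and 3 lower in HCT116 cells with 10 μM at 24 h, where 19.5% of all genes were higher and 15.7% lower.

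**Figure D4:**
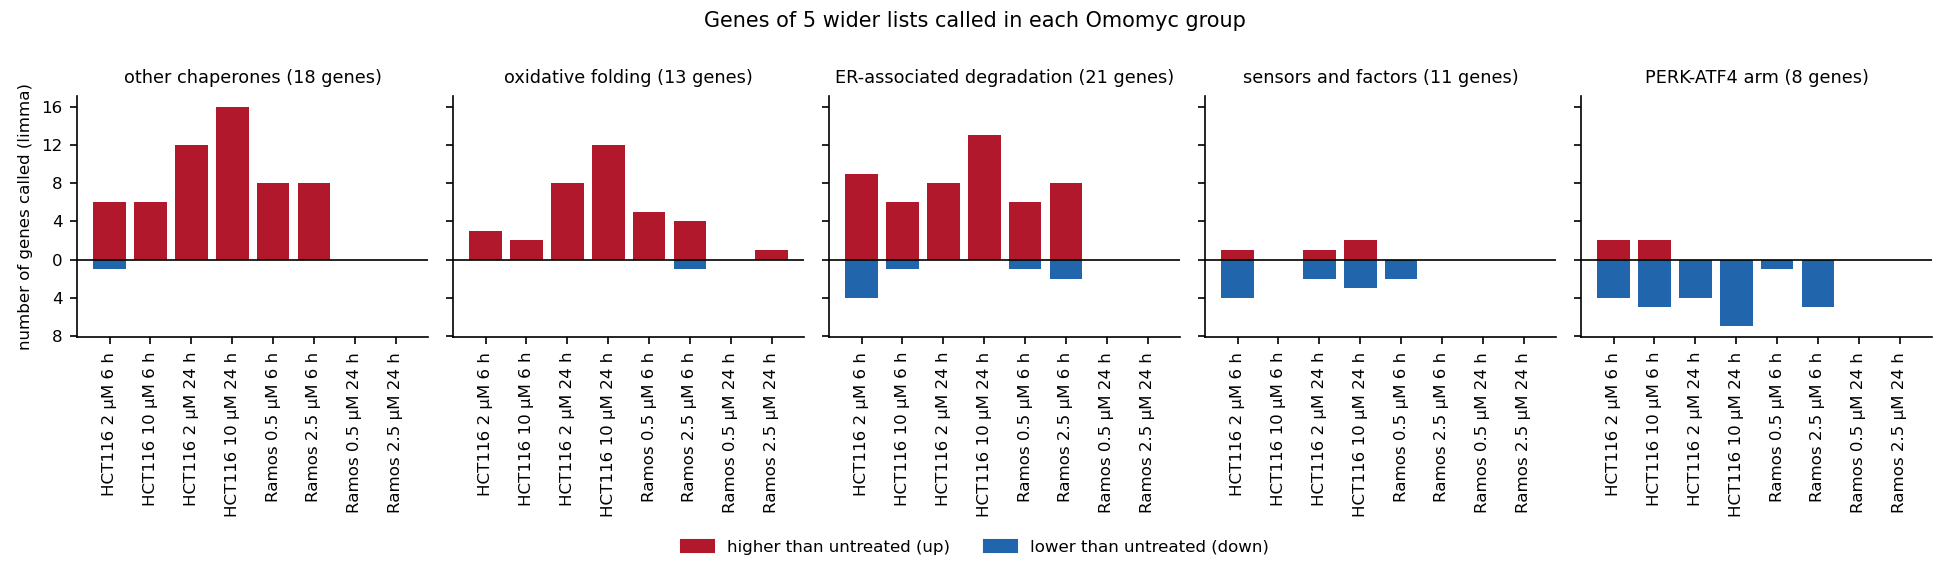
Number of genes called (limma, adjusted p under 0.05) higher (red, up) or lower (blue, down) than untreated cells in 5 lists of other ER and stress genes, by Omomyc group along the horizontal axis. In HCT116 with 10 μM at 24 h, 16 of 18 other chaperones point up, where 19.5% of all genes were higher. All 7 tested genes of the 8 listed for the PERK and ATF4 arm point down there, where 15.7% of all genes were lower.

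Genes with a pattern like that of the 10 genes were ranked within each line by Pearson's r with their mean pattern over its 15 libraries, which share treatments and controls (a description, with no test). In HCT116 cells the highest of 11698 genes were QSOX2, SEC61A1, DNAJC3, ST14 and LPAR2, with r from 0.973 to 0.964. In Ramos cells the highest of 10729 genes were RAPGEF5, FAM219A, HIP1, P4HB and RIPK1, with r from 0.958 to 0.939. SEC61A1 is the core of the ER translocon, DNAJC3 is a cochaperone of HSPA5, and DNAJC3 and P4HB were among the 71 listed genes.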

How the data were processed

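Total RNA depleted of rRNA was sequenced from 30 libraries in 10 groups of 3. The authors deposited 1 table of RPKM values per gene, and RSEM is named in the submitters' processing notes. The aligner and genome build are not given in the sources used here. Gene symbols and positions came from GENCODE release 29, which held 57388 of the 57992 gene identifiers, with 604 unmatched, and promoter sequences from RefSeq (GRCh38.p14).

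RPKM were transformed to log2(RPKM + 0.5), so fold changes of low genes are understated. Genes averaging 0.5 RPKM or more across the libraries compared were fitted with limma 3.58.1 (lmFit and eBayes with trend, R 4.3.3), using the compared groups alone, and p-values were adjusted by Benjamini-Hochberg over all genes tested. A two-sided exact permutation test of 3 libraries against 3 cannot go below p = 0.1. No libraries were identical. Replicate numbers are shared by the groups, but the labels do not say that they pair libraries, so no block was used. The alternatives changed the pseudocount (0.1 and 1), the filter (none and 2 RPKM), the scaling (median-ratio, and equal RPKM totals), the libraries fitted, the replicate block and each replicate in turn. Scaling to equal totals over protein-coding genes was chosen after seeing the data. The genes named besides the 10 were at most the 2 called genes per role and comparison with the largest change and a mean of at least 2 RPKM, and the 5 genes per line most like the 10. The 10 genes and the lists were chosen with earlier results of these data known. 1 B cell marker of the list, and the sum that held it, are not reported here.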

Additional observations from a re-analysis of the deposited data

Results flagged for a closer look

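The change over untreated cells differed between the lines in 18 tests of the difference itself (limma interaction term, HCT116 minus Ramos, adjusted p under 0.05), at doses that were not matched. At 6 h, with 2 μM for HCT116 and 2.5 μM for Ramos cells, the log2 differences were -0.61 for PDIA3, -0.39 for PDIA4, -0.67 for PDIA6 and 0.58 for DNAJB9. These 3 lower and 1 higher of the 10 genes were near the shares of all genes, at 28.4% lower and 12.2% higher. The median difference was -0.09, beside -0.14 for all genes. At 24 h with the same doses, the log2 differences were 0.41 for HSPA5, 0.55 for HSP90B1, 0.89 for CALR, 0.26 for CANX, 0.34 for PDIA4, 0.23 for PDIA6 and -0.46 for XBP1. At 24 h with 10 μM for HCT116 cells, they were 0.62 for HSPA5, 0.66 for HSP90B1, 1.103 for CALR, 0.39 for CANX, 0.49 for PDIA4, 0.38 for PDIA6 and -0.21 for XBP1. At 24 h 6 genes were higher and 1 lower with either dose, where 6.81% of all genes were higher and 9.51% lower with 2 μM and 9.65% and 12.9% with 10 μM. With the same RPKM total in every library CANX and PDIA6 changed sign with both doses and PDIA4 with 2 μM, and at 24 h the calls of CALR and XBP1 alone among these genes were kept. Both 24 h tests share the untreated libraries of both lines and the Ramos libraries at 2.5 μM.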

How the results depend on the processing

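Scaling moved more results than any pseudocount did. Scaling every library to the same RPKM total shifted the all-gene median, on the log2 scale, from -0.12 to -0.42 in HCT116 cells with 2 μM at 6 h, from -0.11 to -0.56 with 10 μM at 6 h, from 0.02 to -0.15 with 10 μM at 24 h, and from 0.05 to 0.24 in Ramos cells with 2.5 μM at 24 h. The share of calls that were higher went from 32.7% to 6.76% with 2 μM at 6 h (53.8% with median-ratio scaling), from 29.4% to 4.29% with 10 μM at 6 h (47.6%), from 60.6% to 23.0% with 2 μM at 24 h (45.1%) and from 55.3% to 20.4% with 10 μM at 24 h. In Ramos cells it went from 58.7% to 79.8% with 0.5 μM at 6 h, from 61.8% to 85.2% with 2.5 μM at 6 h and from 71.6% to 97.4% with 2.5 μM at 24 h (45.1% with median-ratio scaling). With that total, 40 other single-gene values that were called neither before nor after changed sign, and these called in either fit did: CALR at 0.16 and CANX at 0.20 in Ramos cells with 2.5 μM at 24 h, CALR at 0.29 and PDIA6 at 0.32 between untreated lines, and, for the line difference, CALR at -0.40 at 6 h, CANX at -0.10, PDIA4 at -0.0184 and PDIA6 at -0.14 at 24 h with 2 μM, and CANX at -0.00097 and PDIA6 at -0.0161 with 10 μM.

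Counts of the 10 genes that moved were, in HCT116 cells with 2 μM at 6 h, 1 lower, which became 0 without a filter or with median-ratio scaling, 2 with the same total and 0 to 1 without 1 replicate. With 10 μM at 6 h, 2 higher became 0 without a filter, 5 with median-ratio scaling, 0 with the same total and 0 to 9 without 1 replicate, and 1 lower became 0 without a filter and 0 to 1 without 1 replicate. With 2 μM at 24 h, 7 higher became 1 without a filter, 2 with the same total and 1 with all groups of the line in the fit, and 2 lower became 0 without a filter, 0 with all groups and 1 to 2 without 1 replicate. With 10 μM at 24 h, 8 higher became 4 with the same total and 2 with all groups. In Ramos cells 0 lower with 0.5 μM at 6 h became 1 without a filter, with a minimum of 2 RPKM, with median-ratio scaling, with equal protein-coding totals and with all groups, and 0 lower with 2.5 μM at 6 h became 1 without a filter, with median-ratio scaling or equal protein-coding totals and 0 to 1 without 1 replicate. With 2.5 μM at 24 h, 1 higher became 6 with the same total, 0 with equal protein-coding totals, 0 with the replicate block and 0 to 1 without 1 replicate, and 1 lower became 0 with the same total, 0 with the replicate block and 0 to 2 without 1 replicate. Between 6 and 24 h, 3 called in HCT116 cells with 2 μM became 0 without a filter, 6 with the same total, 5 with the replicate block and 2 to 7 without 1 replicate, and 0 called with 10 μM became 1 with all groups. Between doses in Ramos cells, 0 called at 6 h became 1 with a minimum of 2 RPKM or all groups, and 1 called at 24 h became 0 without a filter, 2 with the same total and 0 to 3 without 1 replicate. For the line difference, 4 called at 6 h became 1 without a filter, 7 with the same total and 2 to 5 without 1 replicate, 7 called at 24 h with 2 μM became 3 with the same total and 2 with all groups, and 7 with 10 μM became 3 with either. The counts listed here stand without the share of all genes in each fit. Where no value shows it, the cause was not tested. Same-numbered libraries were not correlated over 0.1 in all pairs of any comparison, although in HCT116 cells with 10 μM at 6 h all 3 correlations were positive (0.0565, 0.148 and 0.0855) and all 6 samples correlated best with their own number, a hint from the data and not the design. With the replicate block, 8 of the single-gene calls were lost and 4 gained, and no other count of the 10 genes moved by over 1.5 times. Each single-gene result was also refitted without each of its 6 or 12 libraries in turn. Of these refits, 1284 kept their side of the threshold, 73 lost the call and 23 gained one. The unknown depth and 3 libraries a group limit every value here.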
